A study of Homo sapiens with 6 samples.

Results

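The IFIT family, the interferon-induced proteins with tetratricopeptide repeats, was examined in H661 cells after knockdown of SALL4. H661 is an established human lung carcinoma line, and SALL4 is a zinc finger transcription factor of embryonic stem cells that some tumours express again. The members were IFIT1, IFIT2, IFIT3 and IFIT5, which are 4 of the 18404 genes measured through a probe set with 1 gene symbol. They were chosen by their log2 intensity difference between the knockdown and the control, so their own values in this contrast are a description and carry no test. RNA was measured on 6 Affymetrix arrays, 3 of cells given a scrambled shRNA (Scr-sh) and 3 of cells given a SALL4 shRNA (SALL4-sh). All cells were grown in RPMI with 10% FBS, and both groups carried a hairpin delivered by a lentiviral vector. A single hairpin per group was labelled, so the effect of its sequence and of the loss of SALL4 cannot be told apart. The labels do not say whether replicate arrays are separate cultures. The p-values printed for other genes therefore measure the spread between these arrays, which may be technical.

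IFIT proteins are made of helical repeats that form a pocket for the 5′ end of foreign RNA. IFIT1 holds RNA whose cap lacks ribose methylation and keeps it from the ribosome, IFIT3 stabilises IFIT1 and is built into complexes with it, IFIT2 joins these complexes and has been linked to cell death, and IFIT5 binds RNA with a bare triphosphate. Cells that meet viral RNA or interferon switch the genes on through the interferon-stimulated response element, a promoter site for IRF factors. The genes lie side by side on chromosome 10, and the related IFIT1B stands among them.

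The promoters of the family are shown because they hold the site through which its induction is known to run. Each is the 250 bases before an annotated start of transcription, from RefSeq on GRCh38.p14, plus strand. They lie at chr10:89392373-89392622 for IFIT1, chr10:89327747-89327996 and chr10:89332279-89332528 for the pair of starts of IFIT3, and chr10:89414318-89414567 for IFIT5. IFIT2 had no entry in the promoter table. Capitals mark TTTCNNTTTC, the core of the response element, which reads GAAANNGAAA on the opposite strand.
IFIT1: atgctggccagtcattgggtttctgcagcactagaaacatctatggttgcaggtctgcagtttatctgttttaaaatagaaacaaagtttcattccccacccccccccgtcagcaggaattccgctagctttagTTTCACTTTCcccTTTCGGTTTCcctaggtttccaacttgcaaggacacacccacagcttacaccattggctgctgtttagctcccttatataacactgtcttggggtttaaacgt
IFIT3, start 1: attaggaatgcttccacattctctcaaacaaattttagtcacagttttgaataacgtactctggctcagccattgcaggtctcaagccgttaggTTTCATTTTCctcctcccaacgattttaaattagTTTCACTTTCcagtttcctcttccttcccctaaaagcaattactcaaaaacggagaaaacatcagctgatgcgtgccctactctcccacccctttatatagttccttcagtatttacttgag
IFIT3, start 2: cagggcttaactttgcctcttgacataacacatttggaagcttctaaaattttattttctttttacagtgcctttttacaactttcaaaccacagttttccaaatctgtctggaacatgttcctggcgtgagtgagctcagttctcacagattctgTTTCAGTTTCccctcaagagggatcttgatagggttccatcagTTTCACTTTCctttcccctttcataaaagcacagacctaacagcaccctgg
IFIT5: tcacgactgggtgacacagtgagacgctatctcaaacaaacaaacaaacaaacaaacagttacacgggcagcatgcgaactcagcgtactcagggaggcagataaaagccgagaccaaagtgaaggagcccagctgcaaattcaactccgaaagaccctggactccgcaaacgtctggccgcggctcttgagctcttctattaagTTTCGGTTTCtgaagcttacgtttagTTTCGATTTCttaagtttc

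Both strands were searched over 300 bases, from 250 before to 50 after each start, and no matches overlapped in these promoters. IFIT1 held 2 matches, which began at positions -116 and -103 relative to the start. IFIT3 held 2 matches at each start, at -156 and -122 relative to the first and at -94 and -51 relative to the second. IFIT5 held 3 matches, which began at -45, -19 and -4, so that the last one crosses it and is not whole in the run above. IFIT1B held 0. In every one of these cases the GAAANNGAAA letters were on the strand opposite to the gene. The motif was present in 1255 of 35116 promoters of the table, or 3.57%. Counted by gene, it was present in 1195 of 27305 genes, or 4.38%, and in 29 of 43 other interferon-stimulated genes, or 67.4%. A match is a run of letters and not a measured binding site.

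**Figure D1:**
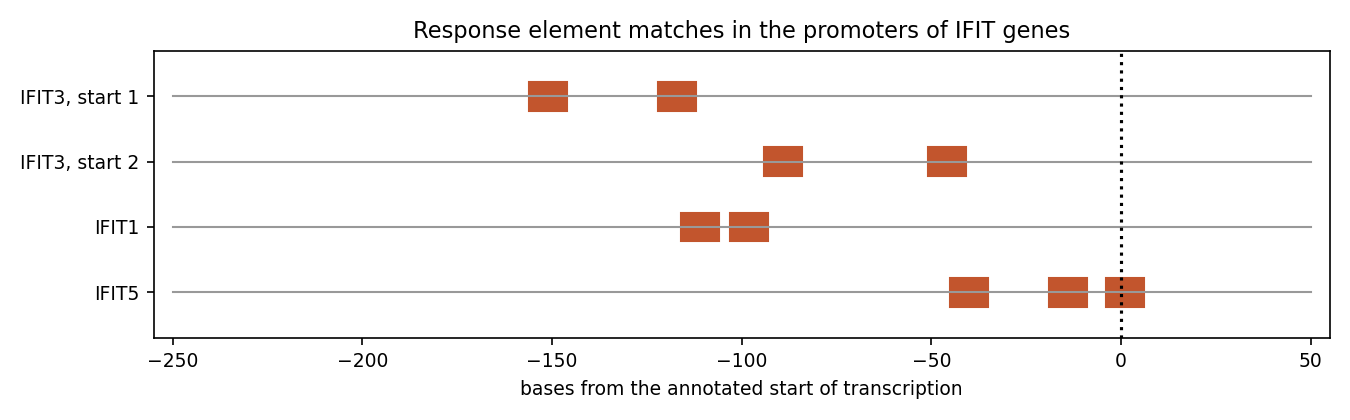
Positions of the response element core (orange blocks, 10 bases each) in the promoter windows of IFIT3 at its annotated starts, IFIT1 and IFIT5; the x axis gives bases from the start of transcription (dotted line). IFIT1 and each start of IFIT3 have 2 matches, and IFIT5 has 3, the last of them across the start.

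The array values are normalized intensities on a linear scale, in which any signal below 8 was set to exactly 8 (log2 of 3). On each array 38.8% to 40.4% of the 32321 probe sets stood at this floor, and 3893 of the 18404 genes did so on all 6 arrays. SALL4 itself was lower in every SALL4-sh array, with 125.5, 104.4 and 130.2 in Scr-sh against 33.6, 31.9 and 26.5 in SALL4-sh (log2 fold change -1.97, standard error 0.14, limma adjusted p = 0.0159, and 0.0309 without Scr-sh replicate 2). Across all genes limma called 218 higher and 244 lower. Of 5 markers of the line, EPCAM and VIM were bright. KRT8, a keratin of simple epithelia, lay between 8 and 11.1, its partner KRT18 between 28.8 and 76.7, and KRT19 between 10.2 and 15.0. Among leukocyte markers, 6 of 12, PTPRC and CD3E among them, stood at the floor on all arrays, the sum of the 12 ran from 158 to 198 in Scr-sh and from 152 to 171 in SALL4-sh, and limma called 0 of them (also 0 at an unadjusted p under 0.05 and 0 with the 25th percentile filter described below). The marker with the largest difference, CD68 of macrophages, averaged 58.5 ± 21.3 (SD, n = 3) in the control and 33.0 ± 2.45 (SD, n = 3) after knockdown, with overlapping groups (limma adjusted p = 0.388).

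IFIT1, IFIT2 and IFIT3 were high in the scrambled control and low after SALL4 knockdown, by 35.1-fold, 12-fold and at least 9.29-fold, where the fold of IFIT2 is also cut short by the floor. IFIT5 was at or close to the floor in both groups. In cell populations such as these, fewer cells that express a gene and less RNA per cell cannot be told apart.

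IFIT1, which binds incompletely capped RNA, had intensities of 681, 1112 and 540.4 in Scr-sh replicates 1, 2 and 3 and of 16.0, 36.6 and 16.1 in the SALL4-sh replicates. Every control array stood far above every knockdown array, and the lowest control value exceeded the highest knockdown value by 3.88 on the log2 scale. The mean was 778 ± 298 (SD, n = 3) in the control and 22.9 ± 11.9 (SD, n = 3) after knockdown. The log2 fold change of IFIT1 was -5.14 (standard error 0.48). All 6 values were above the floor, so that for IFIT1 the fall was measured on both sides. Of the 18404 genes, 1 had a more negative log2 fold change, CCL5.

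IFIT2, a partner of IFIT1 and IFIT3, had intensities of 52.9, 243 and 77.9 in Scr-sh. Its values in SALL4-sh were 8, 9.11 and 8. The groups did not overlap, with a gap of 2.54 on the log2 scale, and 2 of the 3 knockdown arrays were at the floor. The mean was 125 ± 103 (SD, n = 3) in the control and 8.37 ± 0.642 (SD, n = 3) after knockdown, and the log2 fold change of -3.58 (standard error 0.63) is limited by the floor.

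IFIT3, which stabilises IFIT1, had intensities of 40.7, 173 and 58.2 in Scr-sh and stood at 8 on all 3 SALL4-sh arrays. The gap between the groups was 2.35 on the log2 scale. The Scr-sh mean was 90.8 ± 72.1 (SD, n = 3), and the log2 fold change of -3.22 (standard error 0.60) is a bound set by the floor, as is the fold of at least 9.29 that it corresponds to.

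IFIT5, the member that binds triphosphate RNA, had intensities of 8, 12.3 and 8 in Scr-sh and of 8, 10.3 and 8 in SALL4-sh. The groups overlapped, and 4 of the 6 arrays were at the floor, so a difference at this level of signal was not detectable. Its mean was 9.43 ± 2.48 (SD, n = 3) in the control and 8.75 ± 1.30 (SD, n = 3) after knockdown, which gave a log2 fold change of -0.09 (standard error 0.23). IFIT5 thus differed from the other members in its values on these arrays. Its promoter carried the motif, as did those of IFIT1 and IFIT3. Because IFIT5 was at or near the floor, nothing about the motif is read from this.

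**Figure D2:**
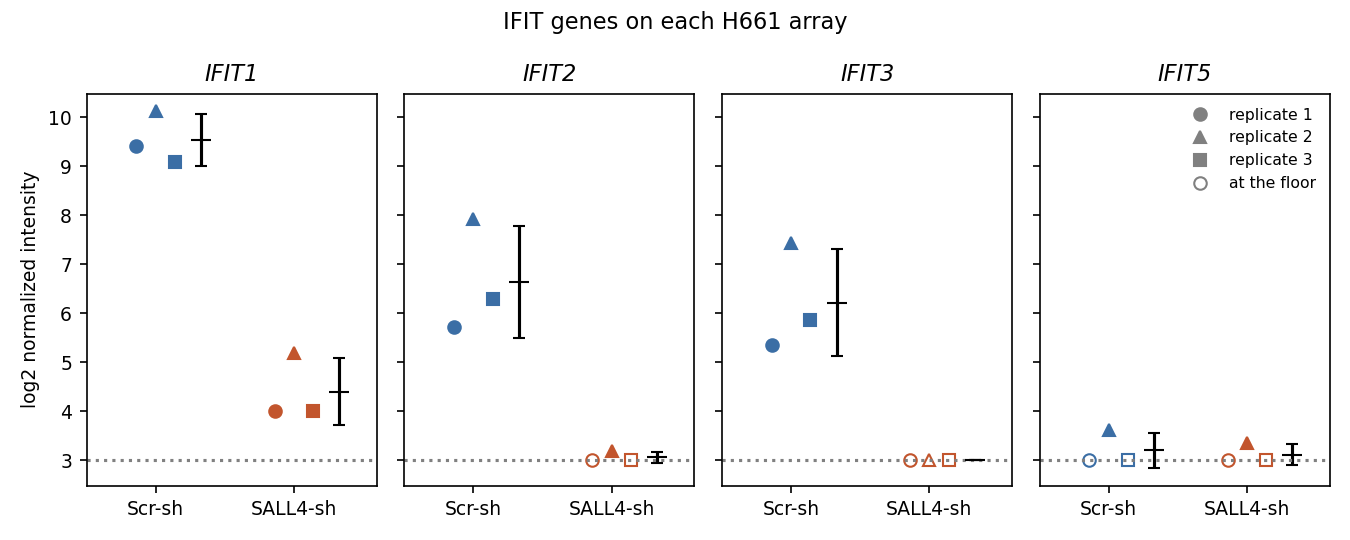
Log2 normalized intensity of IFIT1, IFIT2, IFIT3 and IFIT5 on each array, with symbols for the replicate number, open symbols for values at the floor (dotted line at 3) and bars for the mean ± SD of 3 arrays. IFIT1 lies between 9.08 and 10.12 in Scr-sh and up to 5.19 in SALL4-sh, IFIT2 and IFIT3 drop to the floor or next to it, and IFIT5 is near the floor in both groups.

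Of the members, 1 of the 4, IFIT1, was lower at a limma adjusted p under 0.05, where 1.33% of the genes tested were lower and 1.18% higher. A second fit left out the weak probe sets, those not above the 25th percentile of the mean, and called 3 of the 4 lower, where 5.47% of its genes were lower and 5.85% higher. In 3 of the 4 every SALL4-sh value was below every Scr-sh value, which held for 12.5% of the genes that were not at the floor on all arrays, with 15.0% separated the other way. In the unfiltered fit, 2 of the 4 were called lower without Scr-sh replicate 2, where 0.94% of all genes were. With any other array left out, 0 of the 4 were called. These counts follow from how the members were picked, and nothing is read from them. IFIT1, IFIT2 and IFIT3, but not IFIT5, also belong to the signature that the study drew from these arrays.

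Within the control group all members were highest on replicate 2. On the log2 scale Scr-sh replicate 2 exceeded the mean of replicates 1 and 3 by 0.87 for IFIT1, by 1.92 for IFIT2, by 1.83 for IFIT3 and by 0.62 for IFIT5. It was the highest control array for 4 of 4 members, for 33 of 40 other interferon-stimulated genes that left the floor (82.5%) and for 5593 of 14511 such genes overall (38.5%). SALL4 went the other way on this array, 0.29 lower than the mean of the other arrays of the group. In SALL4-sh the replicate with the number 2 exceeded the others by 1.19 for IFIT1, 0.19 for IFIT2 and 0.36 for IFIT5. Without Scr-sh replicate 2 the log2 fold changes were -4.84 for IFIT1, -2.94 for IFIT2, -2.60 for IFIT3 and 0.12 for IFIT5. The fall of IFIT1, IFIT2 and IFIT3 was thus present without that array, and its size depended on the array more for IFIT2 and IFIT3 than for IFIT1.

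IFIT2 and IFIT3 had nearly the same profile. After each gene was centred on its own mean, their log2 values differed by a root mean square of 0.196 over the 6 arrays. IFIT1 differed from IFIT2 by 0.95 and from IFIT3 by 1.11 on the same measure. The log2 fold change of IFIT1 differed from that of IFIT2 by -1.55 and from that of IFIT3 by -1.92, and since the floor cuts only the latter pair, these differences have no clear size.

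The genes next to the family were compared with it by position. In the order of the RefSeq table, ACTA2-AS1, ACTA2, FAS, CH25H and LIPA precede the cluster, IFIT1B lies within it, and SLC16A12, PANK1, MIR107, FLJ37201 and KIF20B follow it. Of these 11 genes limma called 0 without a filter, and the number at an unadjusted p under 0.05 was 1, LIPA. No level could be compared for 4 of the 11, as CH25H, IFIT1B, SLC16A12 and FLJ37201 stood at the floor on all arrays. LIPA, the lysosomal acid lipase whose annotation overlaps the cluster, averaged 23.9 ± 3.99 (SD, n = 3) in the control and 11.5 ± 2.79 (SD, n = 3) after knockdown. It had a log2 fold change of -1.07 (standard error 0.24), with a limma adjusted p of 0.122 over all genes and of 0.0158 with the 25th percentile filter. KIF20B, a mitotic kinesin, had -0.39 and PANK1, a pantothenate kinase, -0.25 (limma adjusted p = 0.851 and 0.489). ACTA2, FAS, ACTA2-AS1 and MIR107 lay between -0.12 and 0.17.

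**Figure D3:**
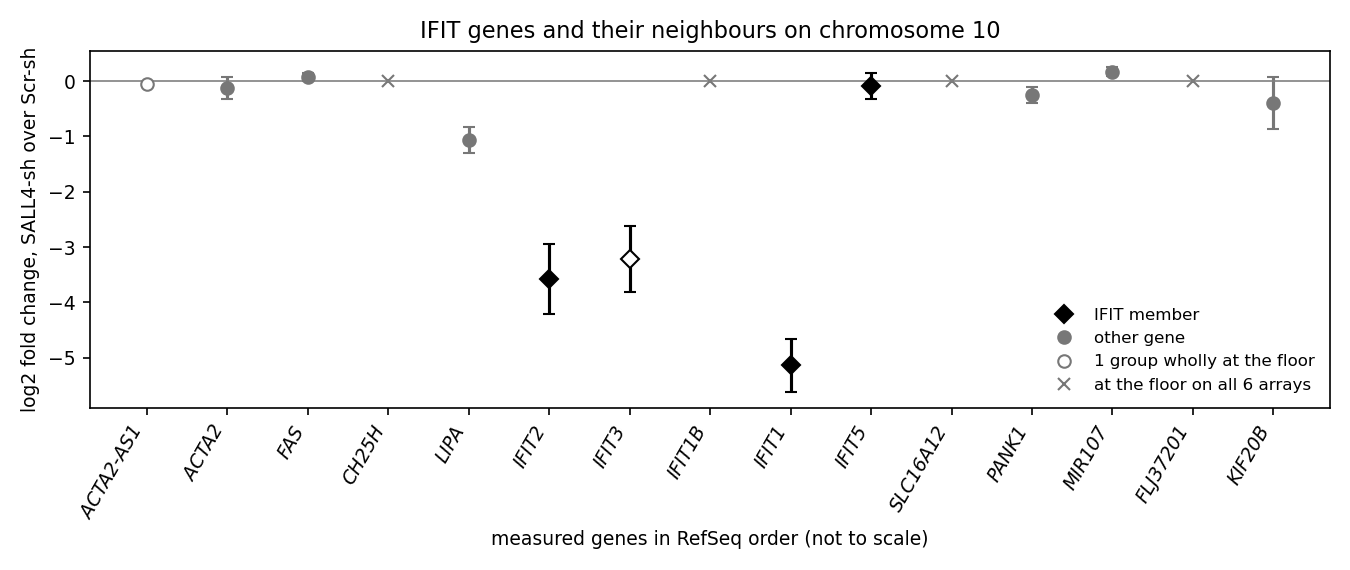
Log2 fold change of SALL4-sh over Scr-sh (points, bars are the limma standard error) for the IFIT genes (diamonds) and their measured neighbours in RefSeq order on chromosome 10, not to scale; open symbols have 1 group wholly at the floor and crosses are at the floor on all 6 arrays. IFIT2, IFIT3 and IFIT1 lie at -3.58, -3.22 and -5.14, LIPA at -1.07, and the other neighbours between -0.39 and 0.17.

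The pathway that induces IFIT genes was followed from ligand to promoter in a list of 43 genes, of which 39 were measured. The other genes of the list were not analysed here, so the measured ones do not cover every step of the pathway. Limma called 1 of the 39 higher and 1 lower, where 1.18% and 1.33% of all genes were, and the median log2 fold change was 0.00 as for all genes. With the 25th percentile filter 3 of 32 were higher and 4 lower, where 5.85% and 5.47% of all genes were.

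Most interferon genes gave no signal above the floor, as 6 of the 9 ligands, IFNB1 and IFNG among them, stood there on all arrays. IFNL2, a type III interferon, had 18.3, 16.0 and 13.2 in Scr-sh and 8, 11.7 and 8 in SALL4-sh. Its groups did not overlap, but with values so close to the floor its log2 fold change of -0.79 had a limma adjusted p of 0.175, and of 0.0415 with the filter. IFNL3, another type III interferon, had 92.4, 70.4 and 90.3 in Scr-sh and 79.0, 87.6 and 50.3 in SALL4-sh, and its groups overlapped (log2 fold change -0.25, limma adjusted p = 0.793). IFNL1 overlapped too, at -0.31 (limma adjusted p = 0.709).

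The receptor chains moved in both directions. IFNAR1, a chain of the type I interferon receptor, rose from 69.2 ± 3.77 (SD, n = 3) to 138 ± 8.67 (SD, n = 3), a log2 fold change of 0.99 (standard error 0.07, limma adjusted p = 0.0154). IFNGR2, a chain of the interferon gamma receptor, fell from 190.2 ± 20.3 (SD, n = 3) to 107 ± 4.25 (SD, n = 3), a log2 fold change of -0.82 (standard error 0.09, limma adjusted p = 0.0337). With 1 array left out, the adjusted p of IFNAR1 ran from 0.0365 to 0.0718 and stayed under 0.05 without SALL4-sh replicate 3 or Scr-sh replicate 2, while that of IFNGR2 ran from 0.0309 to 0.121 and stayed under 0.05 without Scr-sh replicate 2 alone. IFNAR2, the partner of IFNAR1, had a log2 fold change of 0.67 (limma adjusted p = 0.0526, and 0.027 with the filter).

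Of the transcription factors measured, IRF9, a DNA-binding factor of the interferon response, had 39.3, 55.3 and 34.0 in Scr-sh and 32.5, 15.5 and 25.4 in SALL4-sh. The groups were separate by a small margin, and the log2 fold change of -0.84 (standard error 0.36) did not pass limma (adjusted p = 0.35). IRF7, which amplifies the response, had -0.35 (limma adjusted p = 0.172), and IRF3, which starts it, had overlapping groups with -0.26. The kinases JAK1, JAK2 and TYK2 and the inhibitors SOCS1, SOCS3 and USP18 overlapped between groups.

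Of the cytosolic RNA sensors, RIGI, which detects RNA with a triphosphate end, had 313, 935 and 309 in Scr-sh and 44.3, 59.2 and 50.4 in SALL4-sh (log2 fold change -3.14, standard error 0.52). IFIH1, the sensor of long double-stranded RNA also known as MDA5, had 197, 545 and 187 in Scr-sh and 23.8, 49.4 and 27.9 in SALL4-sh (log2 fold change -3.08, standard error 0.57). Neither passed limma over all genes (adjusted p = 0.0694 and 0.0862), both did with the filter (0.00211 and 0.00294), and without Scr-sh replicate 2, their highest array, RIGI did (0.0291) and IFIH1 did not (0.0833). Both genes belong to the signature that the study drew from these arrays, so their direction is not independent evidence. DHX58, the relative of both that lacks a signalling domain, was close to the floor with overlapping groups, at a log2 fold change of -0.16 (limma adjusted p = 0.853). The adaptor MAVS, through which RIGI and IFIH1 signal, overlapped between groups at a log2 fold change of 0.08, and the kinase TBK1 below it had 1.35 (limma adjusted p = 0.15, and 0.0156 with the filter).

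A group of other interferon-stimulated genes fell alongside the family, and none of them passed the test upward. Of 49 measured from a list of 50, limma called 9 lower and 0 higher, where 1.33% and 1.18% of all genes were. At an unadjusted p under 0.05, 18 of the list were lower and 0 higher, against 1449 lower and 1757 higher of the 18404 genes. With the 25th percentile filter 17 of 36 were lower and 0 higher, where 5.47% and 5.85% of all genes were. In 25 of the 40 that left the floor every SALL4-sh value was below every Scr-sh value, and in 0 every one was above, where 12.5% and 15.0% of all such genes were. However, 12 genes of the list left the floor in Scr-sh only. The filter used the mean over all 6 arrays, so such genes could pass it through Scr-sh alone and only come out lower. OAS2, CXCL10 and IFI44 are of this kind and are in both the 17 and the 25. These 2 counts are therefore a description only. The median log2 fold change was -0.63, and that of all genes was 0. Without Scr-sh replicate 2 the median was -0.26 and 6 were called lower (0.94% of all genes were), OAS3, ADAR, ZC3HAV1, UBE2L6, CCL5 and PSMB9. With any other array left out, 0 or 1 was called lower. The study's signature from these arrays holds 7 of the 49, with CCL5, HERC5, OASL and CXCL10 among them. The direction of these 7 is therefore not independent evidence. Among the 42 outside it, 6 were lower and the median was -0.42. These 42 were measured on the same arrays in the same contrast, so the split is a description only.

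CCL5, a chemokine for T cells, fell from 865 ± 219 (SD, n = 3) to 25.2 ± 10.8 (SD, n = 3), a log2 fold change of -5.15 (limma adjusted p = 0.0166). HERC5, the ligase that attaches ISG15 to new proteins, had a log2 fold change of -4.71, OASL, an antiviral relative of the oligoadenylate synthetases, of -3.99, and ISG15 itself of -2.22 (limma adjusted p = 0.038, 0.0305 and 0.0458). These 3 and IFITM3, which blocks virus entry and had -2.0 (limma adjusted p = 0.0322), lost the call with any 1 array left out. UBE2L6, the conjugating enzyme for ISG15, had a log2 fold change of -1.76, OAS3, which makes the activator of RNase L, of -1.95, ADAR, the RNA editing enzyme, of -1.11, and ZC3HAV1, which targets viral RNA for decay, of -1.0 (limma adjusted p = 0.0384, 0.0165, 0.019 and 0.0418). These 4 and CCL5 stayed past the threshold under 1 or 2 of the 6 omissions of an array, that of Scr-sh replicate 2 in each case.

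By role, 5 of 19 antiviral effectors were called lower, 3 of 7 genes of the ISG15 system and ADP-ribosylation, 1 of 4 chemokines, 0 of 2 helicase-like genes, 0 of 4 antigen presentation genes and 0 of 13 others, where 1.33% of all genes were. Of the antigen presentation genes, B2M, PSMB9 and TAP1 were lower with the filter. The 13 others had a median log2 fold change of -0.17, and 2 of them stood at the floor on all arrays. With the filter 3 of 9 of these others were lower, IFI6, IFI35 and IFI44, where 5.47% of all genes were. Some well known interferon-stimulated genes gave almost no signal. MX1 reached at most 8.41 on any array, and RSAD2 left the floor on 1 array, Scr-sh replicate 2, at 18.4. CXCL10 had 22.2, 156 and 32.8 in Scr-sh and 8 on all SALL4-sh arrays (limma adjusted p = 0.217, and 0.0223 with the filter). IFI44 also stood at 8 on all SALL4-sh arrays. Both genes passed the filter through the control group alone, so their filtered results add no support.

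Proteins that make or read the RNA ends bound by IFIT1 and IFIT5 were followed in 11 measured genes of a list of 14. Limma called 0 higher and 1 lower, EIF4G1, the scaffold of the cap-binding complex, which fell from 76.7 ± 3.98 (SD, n = 3) to 49.7 ± 3.55 (SD, n = 3), a log2 fold change of -0.63 (limma adjusted p = 0.0346, and 0.0588 to 0.12 with 1 array left out). RNGTT, the enzyme that caps new transcripts, had a log2 fold change of 1.45 and RAMAC, the activating subunit of the cap methyltransferase, of 1.31 (limma adjusted p = 0.0666 and 0.0581, and 0.00429 and 0.00452 with the filter). CMTR1, which adds the ribose methyl group that IFIT1 reads as self, overlapped between groups at -0.19, as did EIF3E, a subunit of an initiation factor that IFIT proteins contact, at -0.08. The median of the list was -0.07.

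**Figure D4:**
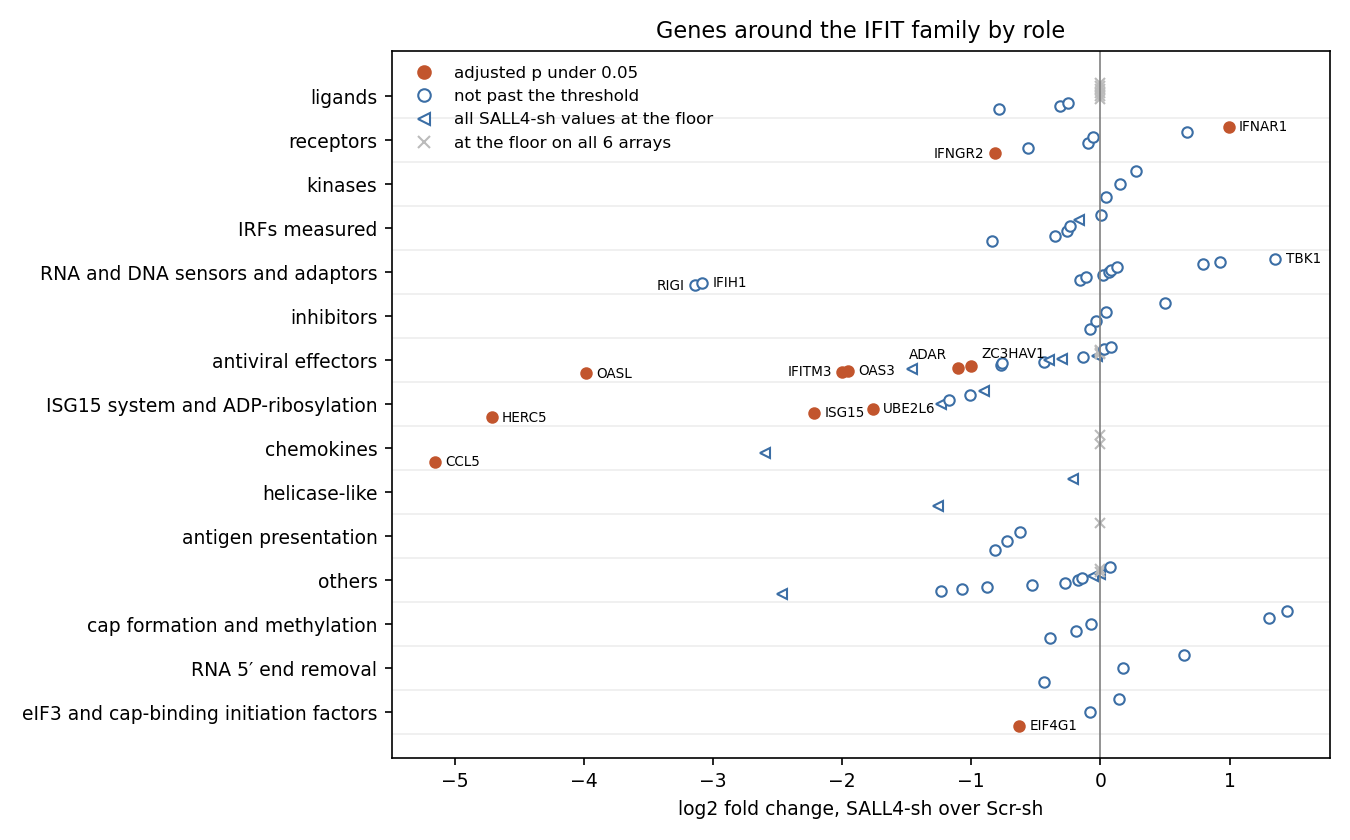
Log2 fold change of SALL4-sh over Scr-sh for the measured genes of the induction pathway, the other interferon-stimulated genes and the cap and translation partners, 1 row per role; filled points passed a limma adjusted p under 0.05, triangles have all SALL4-sh values at the floor, and crosses are at the floor on all 6 arrays. IFNAR1 is the filled point to the right of 0, at 0.99, and the filled points among the interferon-stimulated genes run from -5.15 to -1.0.

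The genes whose profiles lay nearest to each member were ranked by the root mean square difference of centred log2 values over the 6 arrays, among genes above the floor on at least 4 arrays. The measure takes in the contrast by which the family was picked, so it is a description. Nearest to IFIT1 were CCL5 (0.128), HERC5 (0.47) and OASL (0.597), where the median of 13147 candidates was 2.63. Nearest to IFIT2 were RIGI (0.307), IFIH1 (0.426) and OASL (0.487), where the median was 1.93. Nearest to IFIT3 were IFIT2 (0.196), RIGI (0.217) and IFIH1 (0.384), where the median was 1.75. IFIT1, IFIT2, IFIT3 and these nearest genes were all highest in the control group on Scr-sh replicate 2. Nearest to IFIT5 were PRKCE (0.0563), HRH3 (0.0603) and FOXA3 (0.0615), where the median was 0.357. IFIT5 left the floor on 2 arrays, so for it the ranking describes little more than those 2 values.

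**Figure D5:**
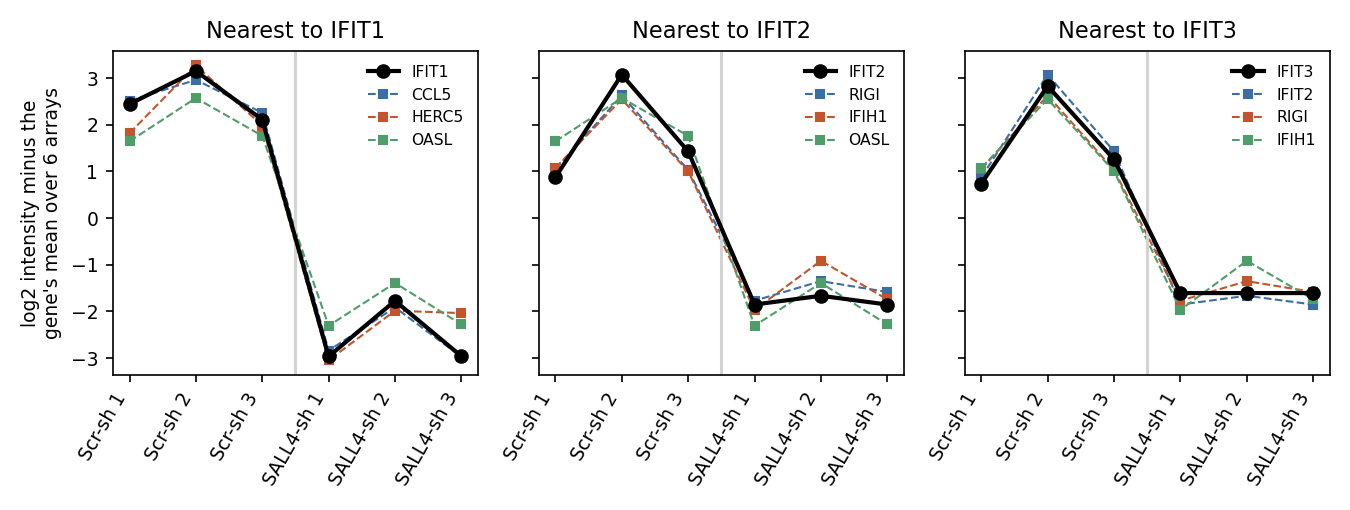
Centred log2 intensity (each gene minus its own mean) on the 6 arrays for IFIT1, IFIT2 and IFIT3 (black) and the 3 genes nearest to each (coloured, dashed); lines join arrays only to guide the eye. CCL5 stays within a root mean square of 0.128 of IFIT1, and RIGI within 0.307 of IFIT2 and 0.217 of IFIT3.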

How the data were processed

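The deposited values are normalized intensities on a linear scale with a floor of 8, given by the authors for 32321 probe sets on 6 arrays. Per the labels, 5 µg of total RNA went into each biotin-labelled cRNA preparation. The submitters' processing notes name RMA, without a version in the sources used here, and the files name no genome build. Precision is limited by the number of arrays, and differences between weak signals are lost to the floor.

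Intensities were transformed to log2. The platform annotation gave each probe set its gene, with symbols checked against RefSeq of GRCh38.p14 (0 changed, 30 gene identifiers not in the table). Of the probe sets, 19158 had 1 symbol, 1388 had several and 11775 had none listed. The brightest probe set by mean carried each of 18404 genes (637 had several, and each member had 1). No arrays held identical values. The comparison used R 4.3.3 and limma 3.58.1 (threshold 0.05 after Benjamini-Hochberg adjustment over all genes, lmFit, untrended eBayes, no filter). It was also run on simulated data, whose results are not printed here. The simulation changed only genes with a mean well above the floor and drew each gene independently. It therefore did not cover members near the floor or a shift that many genes share on an array. Promoter matches were searched in Python 3.11.15.

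Alternatives were 3 further normalizations, 2 filters on weak signal, the mean of probe sets, trended robust eBayes, one-way ANOVA, the replicate number as a block, and each array left out in turn. Members, lists and alternatives were chosen with earlier results of these data known. Genes named were the members, SALL4, the genes of each list past the threshold or else those with the smallest p, all measured neighbours, and the 3 genes nearest to each member. Other list genes named above, such as MX1, RSAD2 and CXCL10, were chosen after their values were seen.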

Additional observations from a re-analysis of the deposited data

How the results depend on the processing

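The log2 fold changes of the members kept their sign under every alternative apart from IFIT5, which was -0.21 to 0.12 with 1 array left out. The other ranges with 1 array left out were -5.53 to -4.84 for IFIT1, -4.04 to -2.94 for IFIT2 and -3.65 to -2.60 for IFIT3. The same omissions gave 23 to 231 genes higher and 29 to 173 lower among all genes, 0 to 2 higher and 0 to 2 lower in the induction pathway, 0 higher and 0 to 6 lower among other interferon-stimulated genes, 0 to 1 higher and 0 lower among cap and translation partners, 0 among the neighbours, and 0 to 2 members. The 25th percentile filter gave 809 genes higher and 757 lower, 3 higher and 4 lower in the induction pathway, 17 lower interferon-stimulated genes, 2 higher partners, 1 lower neighbour and 3 lower members. Leaving out only the genes at the floor throughout gave 633 higher and 610 lower, 3 higher and 3 lower in the induction pathway, 2 higher partners, 1 lower neighbour and 3 lower members. Trended robust eBayes gave 26 higher and 50 lower, 0 and 0 in the induction pathway, 3 lower interferon-stimulated genes and 0 lower partners. One-way ANOVA, which the study names, gave 94 higher and 121 lower, 0 lower in the induction pathway, 4 lower interferon-stimulated genes and 0 lower partners. Quantile normalization gave 2 higher in the induction pathway, and the mean of probe sets gave 1 higher partner. The cause of these shifts was not tested. The replicate number as a block gave 3 higher and 7 lower genes, 0 and 0 in the induction pathway, 1 lower interferon-stimulated gene, 0 lower partners and 0 members. Deviations of same-numbered arrays correlated at 0.14, 0.11 and -0.00069 over genes, and those of differently numbered arrays at -0.15 to 0.034. With the block the standard error of IFIT1 was 0.13, against 0.48 in the main fit. Whether the numbers pair the arrays cannot be told from these values. The floor limits the folds of IFIT2 and IFIT3 and leaves IFIT5 without a measurable difference.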
